A study of Mus musculus with 2 samples.

Results

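The Hox genes were the 39 genes whose name on the array was Hoxa, Hoxb, Hoxc or Hoxd followed by a paralog number, out of 24078 named genes, and they were taken by name alone. They were read by 45 probes in 63 spots, with 1 probe for 33 of the genes and 2 probes for the other 6. RNA came from tibialis anterior, a muscle at the front of the lower hindlimb, of adult male C57BL/6 mice. One sample was of the genotype transgenic for activated Notch2 (N2ICD, the intracellular part of the receptor, which acts in the nucleus without ligand), and 1 sample was a control. Each sample was hybridised to 1 single-colour array. The promoter that drives the transgene and the number of animals behind each RNA sample are not given in the sources used here. With 1 array per group no difference could be tested, and genotype, animal, dissection and array cannot be told apart.

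Hox genes encode homeodomain transcription factors that lie in 4 clusters and mark position along the body. Within a cluster, genes of low paralog number act towards the head and genes of high number towards the tail and the limb tip. In the limb, group 10 patterns the upper segment, group 11 the lower segment that holds tibialis anterior, and group 13 the foot. Adult connective tissue and muscle stem cells keep part of this code. Hox proteins bind DNA together with cofactors of the Pbx and Meis families, and Polycomb proteins keep the unused genes silent.

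The DNA-contacting helix of the homeodomain and the short Pbx-binding motif before it are among the stretches that Hox proteins share most closely, so probes placed there show what tells members apart on this array. Of the 45 probes, 5 encoded such a stretch in an open reading frame. The sequences of 4 of them are given 5′ to 3′ in the sense of the transcript, with positions on mm9. In the first 2, capitals mark the codons at the core of the helix that contacts DNA, from its invariant asparagine to a lysine. In the Hoxd10 probe they mark the codons at the start of that helix, and in the Hoxa6 probe those of the Pbx-binding motif.
Hoxc11, chr15:102787022-102787081: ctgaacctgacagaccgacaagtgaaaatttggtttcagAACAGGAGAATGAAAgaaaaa
Hoxc12, chr15:102768889-102768948: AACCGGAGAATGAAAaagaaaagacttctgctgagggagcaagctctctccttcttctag
Hoxd10, chr2:74532280-74532339: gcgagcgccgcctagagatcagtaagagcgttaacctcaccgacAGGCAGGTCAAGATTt
Hoxa6, chr6:52158194-52158253: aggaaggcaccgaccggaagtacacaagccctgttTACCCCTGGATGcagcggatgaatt
Over their 15 marked bases, Hoxc11 and Hoxc12 were identical at 14 positions. Over all 984 pairs of probes of different Hox genes, the longest run of identical bases was 11 of 60. Whether a probe also binds the transcript of a related Hox gene was not tested.

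Signals are the processed, background-subtracted intensities of the scanner files. Differences are in log2 units, N2ICD minus control, after each array was scaled to its 75th percentile, which lay at a signal of 190 in N2ICD muscle and 169 in control muscle. The scanner marked 24982 spots of the N2ICD array and 24916 of the control array as well above background, out of 59305 non-control spots each, and 0 as saturated. The typical gene had a difference of 0.00. On a scale set by spike-in controls every difference is 0.48 higher, so a value less than 0.48 below 0 turns positive there. Spots of one probe gave an SD of the difference of 0.27 in the dimmest of 4 level groups and 0.05 in the brightest, and different probes of one gene an SD of 0.25. These spreads are technical and hold no spread between animals. The Notch target Hes1 was 5.59-fold higher on the N2ICD array, and 1 of 2 Notch2 probes read 221 on the N2ICD array, against 6.01 (not well above background) on the control array, while the other read 179 in N2ICD muscle and 189 in control muscle. All 8 muscle fibre markers examined, among them Ckm and Acta1, were well above background on both arrays.

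The N2ICD muscle had 17 of the 39 Hox genes well above background, and the control muscle had 18. Both arrays detected 14 of them with the same probe, which is 35.9% of the family, while 52% of all named genes were measured on both arrays. Neither array detected 18 Hox genes, or 46.2%, against 44.4% of all named genes. The N2ICD array alone detected 3 (7.69%, against 1.8% of all named genes), and the control array alone detected 4 (10.3%, against 1.79%). A gene that is not well above background is not shown to be silent. In whole muscle, fewer expressing cells and less RNA per cell cannot be told apart.

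By cluster, both arrays detected 5 of 11 Hoxa genes, 3 of 10 Hoxb genes, 5 of 9 Hoxc genes and 1 of 9 Hoxd genes. The Hoxa and Hoxc genes were Hoxa3, Hoxa7, Hoxa9, Hoxa10, Hoxa11, Hoxc4, Hoxc6, Hoxc9, Hoxc10 and Hoxc11. The Hoxb and Hoxd genes were Hoxb3, Hoxb6, Hoxb7 and Hoxd8. Both muscles thus had detectable members of groups 10 and 11 from the Hoxa and Hoxc clusters, while no Hoxd gene above group 8 was detected in either muscle. By position along the clusters, both arrays detected 2 of 8 genes of groups 1 to 3, 6 of 15 of groups 4 to 8 and 6 of 16 of groups 9 to 13. Over all named genes the share measured on both arrays was 52%. The counts by cluster and by group are small, and differences between them were not tested.

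**Figure D1:**
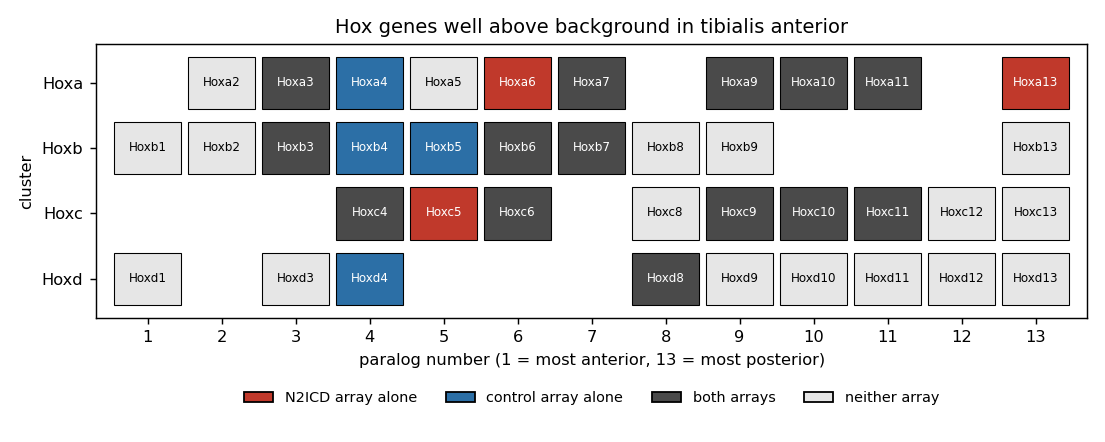
Each box is 1 reported Hox gene, placed by cluster (rows) and paralog number (columns), and its colour says on which array it was well above background. The 14 genes found on both arrays lie between groups 3 and 11, and Hoxd genes from group 9 to 13 are below that level on both arrays.

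The 18 genes below that level on both arrays sat mostly at the ends of the clusters. At the head end they included Hoxa2, Hoxb1, Hoxb2, Hoxd1 and Hoxd3. Hoxb1, a hindbrain gene, had 9 usable spots with signals between 5.80 and 6.71 in N2ICD muscle and between 5.55 and 6.47 in control muscle, so the spots of an undetected gene overlapped between arrays before scaling. In the middle they were Hoxa5, Hoxb8 and Hoxc8. At the tail end they were Hoxb9, Hoxb13, Hoxc12, Hoxc13 and the whole run Hoxd9, Hoxd10, Hoxd11, Hoxd12 and Hoxd13. Hoxd11 had signals of 5.97 and 5.97 in N2ICD muscle and 5.74 and 5.63 in control muscle with its 2 probes, and Hoxd13 had 5.78 in N2ICD muscle and 5.49 in control muscle. Hoxd9 came nearest to detection, with a signal of 27.6 in N2ICD muscle and 22.6 in control muscle, close to the dimmest signals called well above background, 27.1 in N2ICD muscle and 25.4 in control muscle. The call also uses each spot's own background, so it is no plain limit on the signal.

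Of the 14 genes that could be compared, 0 exceeded 2-fold in favour of N2ICD muscle, against 1.45% of all 12518 genes measured on both arrays. None was 2-fold or more lower, against 0.919% of all genes. The median difference of the 14 was 0.09, with a range of -0.47 to 0.85, beside a median of 0.00 over all measured genes. They were split into 7 above 0 and 7 below 0, and all 14 lay above 0 on the spike-in scale. At 1.5-fold, 2 genes were higher (Hoxb6 and Hoxc11, against 5.17% of all genes) and 0 were lower (against 4.75%). The difference exceeded 2 SD of the spot noise in 5 genes upwards, against 22.7% of all measured genes, and in 1 gene downwards, against 19.3%. That limit is thus passed by many genes and does not set the Hox genes apart.

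**Figure D2:**
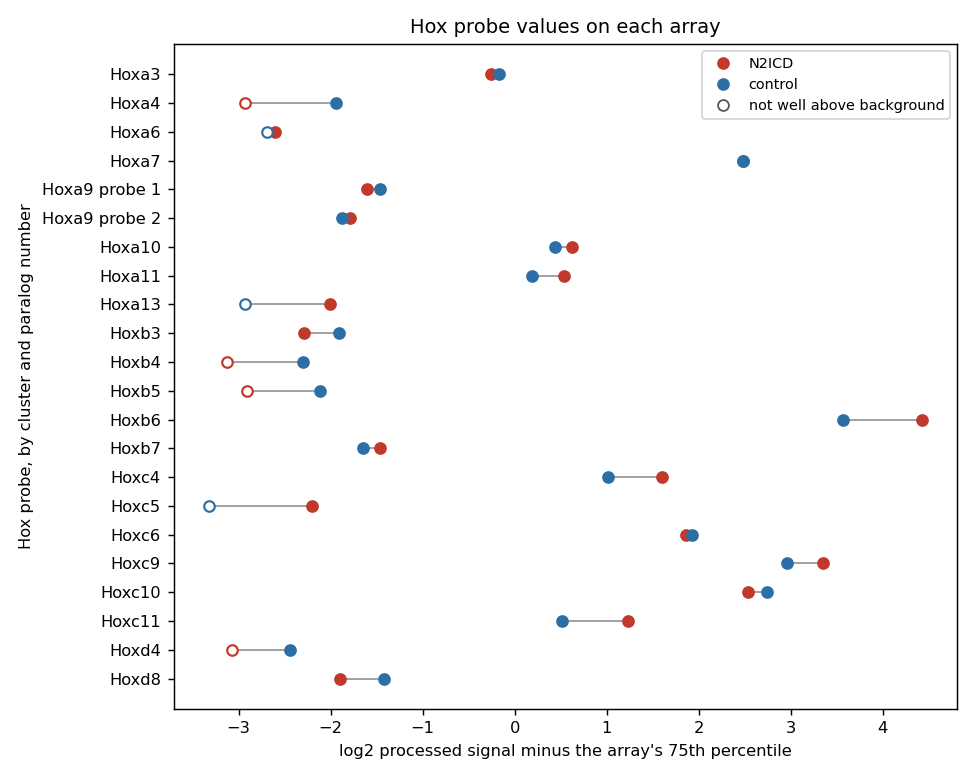
Each row is 1 Hox probe well above background on at least 1 array, and points give its scaled log2 signal on the N2ICD array and the control array, with open points where it was not well above background. Positions compare the arrays within a row only, since probes differ in brightness. Hoxb6 has the widest gap among rows with both points filled.

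In groups 1 to 3, Hoxa3, which shapes the pharyngeal pouches, had a signal of 159 in N2ICD muscle and 150 in control muscle. Its difference was -0.09, within 1 SD of the spot noise of 0.13. Its other probe was below detection in both muscles, with signals of 24.4 in N2ICD muscle and 9.43 in control muscle. Hoxb3, a hindbrain gene, had 39.0 in N2ICD muscle and 45.1 in control muscle with 1 of its probes, while the other was below detection in both muscles at 5.50 in N2ICD muscle and 5.27 in control muscle. For the detected probe that is a difference of -0.38, which was 0.10 on the spike-in scale and lay inside 2 SD of its noise of 0.27.

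In groups 4 to 8 the N2ICD muscle was higher for Hoxb6 and Hoxc4. Hoxb6, which is active in the mesoderm that forms the limbs, had a signal of 4082 in N2ICD muscle and 2009 in control muscle. Its difference of 0.85, or 1.80-fold, was the largest of the family among genes measured on both arrays, against a spot noise of 0.05. Of all genes measured on both arrays, 2.17% had a difference at least as high. Hoxc4 had 577 in N2ICD muscle and 341 in control muscle. Its difference was 0.58, just short of 1.5-fold, with a spot noise of 0.08, and 5.20% of all genes were at least as high.

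The other measured genes of the middle groups lay close to 0 or were too dim to read closely. Hoxc6 had 693 in N2ICD muscle and 642 in control muscle, a difference of -0.06. Hoxa7 had 1062 in N2ICD muscle and 945 in control muscle, a difference of 0.00 with a spot noise of 0.08. Hoxb7 had 68.9 in N2ICD muscle and 54.1 in control muscle, a difference of 0.18 that was -0.02 after normexp background correction. Hoxd8, the only Hoxd gene found on both arrays, had 51.3 in N2ICD muscle and 63.2 in control muscle. Its difference of -0.47, which was 0.00 on the spike-in scale, was the lowest of the 14 and stayed inside 2 SD of its noise of 0.27.

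In groups 9 to 13, which pattern the hindlimb, Hoxc11 and Hoxc9 were higher in the N2ICD muscle, and Hoxc10 was slightly lower except on the spike-in scale. Hoxc11, a gene of the embryonic hindlimb, had 446 in N2ICD muscle and 241 in control muscle with the homeodomain probe shown above. Its difference was 0.71, or 1.64-fold, with a spot noise of 0.13, and 3.31% of all genes were at least as high. Hoxc9, which marks thoracic motor neurons in the embryo, had 1938 in N2ICD muscle and 1312 in control muscle, a difference of 0.39, or 1.31-fold, with a spot noise of 0.05. Between these genes on the chromosome, Hoxc10, another hindlimb gene, had 1099 in N2ICD muscle and 1127 in control muscle. Its difference of -0.21 exceeded 2 SD of its noise of 0.05, and it was 0.27 on the spike-in scale. Hoxc10 lay below both of its neighbours, an order that a shift of scale cannot change.

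Hoxa10 and Hoxa9 lay inside 2 SD of the noise of their spots. Hoxa10, which patterns the upper limb segment, had 294 in N2ICD muscle and 229 in control muscle, a difference of 0.19 inside 2 SD of its noise of 0.13. Hoxa9 was read by 2 probes with small differences of opposite sign. The probe at transcript position 2100 had signals of 62.7 in N2ICD muscle and 61.4 in control muscle, a difference of -0.14. The one at position 1715 had 55.0 in N2ICD muscle and 46.2 in control muscle, a difference of 0.08.

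**Figure D3:**
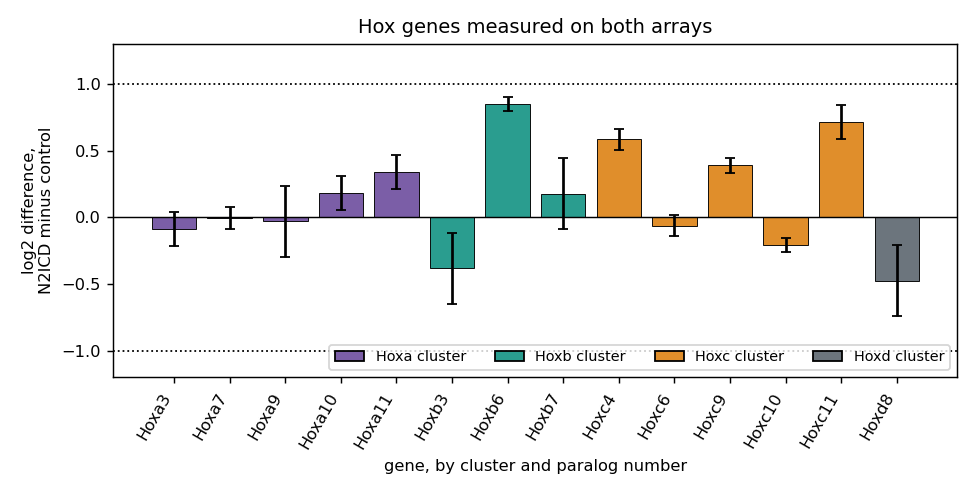
Bars give the log2 difference, N2ICD minus control, of the 14 Hox genes measured on both arrays, ordered by cluster and paralog number, and error bars 1 SD of the spot noise at the gene's level. Dotted lines mark 2-fold. No bar reaches them, and Hoxb6, Hoxc11 and Hoxc4 stand highest.

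Hoxa11, which patterns the lower limb segment, was printed 10 times on each array and is the member with the most spots. Its signals ran from 249 to 294 in N2ICD muscle and from 177 to 217 in control muscle. On the scaled log2 axis the spots averaged 0.53 ± 0.07 in N2ICD muscle and 0.19 ± 0.08 in control muscle (SD, 10 spots each). They ran from 0.39 to 0.63 in N2ICD muscle and from 0.07 to 0.36 in control muscle, so they did not overlap. The difference was 0.34 ± 0.12 (SD over 10 spots of 1 probe), or 1.26-fold. These spots share 1 RNA sample per array, so they measure the arrays and not the genotypes. Of all measured genes, 13.4% had a difference at least as high.

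**Figure D4:**
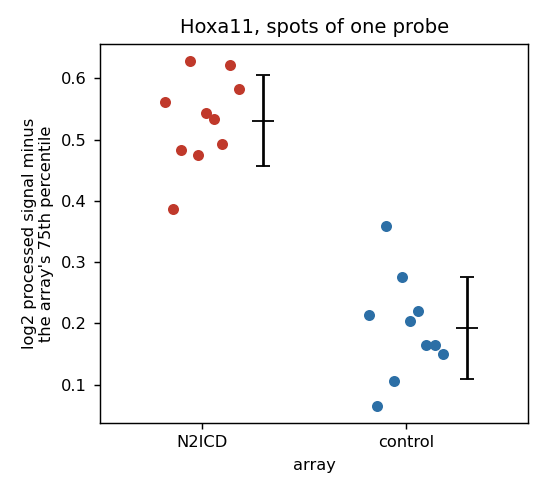
Points are the 10 spots of the Hoxa11 probe on the N2ICD array (left) and the control array (right) in scaled log2 units, and the bars give mean and SD. The lowest N2ICD spot, at 0.39, lies above the highest control spot, at 0.36.

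The call differed between the arrays for 7 genes. Hoxa4, Hoxb4 and Hoxd4, members of group 4, and Hoxb5 were detected on the control array alone. Hoxa4 had a signal of 24.9 in N2ICD muscle and 44.0 in control muscle, a bound of 1.83-fold lower in the N2ICD muscle. Hoxb5 had 25.5 in N2ICD muscle and 38.9 in control muscle, a bound of 1.62-fold lower. Hoxb4, known from blood stem cells, had 21.8 in N2ICD muscle and 34.2 in control muscle, a bound of 1.42-fold lower. Hoxd4 had 22.6 in N2ICD muscle and 31.2 in control muscle, a bound of 0.37 log2 units lower. So 3 of the 4 genes of group 4 were detected in the control muscle alone, against 1.79% of all named genes. Hoxc4 was higher in the N2ICD muscle. Group 4 was singled out after the calls were seen, and the signals of these 3 genes lay near the background. Each bound sets the detected value against the dimmest signal called well above background on the other array. Where the gene's own signal there was higher, that signal was used. The bounds leave out spot noise. On the spike-in scale the bounds were -0.39 for Hoxa4, -0.21 for Hoxb5 and -0.03 for Hoxb4, and the bound for Hoxd4 no longer lay below 0.

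Hoxa13, Hoxc5 and Hoxa6 were detected on the N2ICD array alone. Hoxa13, a gene of the foot, had 47.5 in N2ICD muscle and 22.2 in control muscle, a bound of 1.66-fold higher in the N2ICD muscle. Its other probe, nearer the transcript's end, was below detection in both muscles and gave a difference of -0.29. Hoxc5 had 41.3 in N2ICD muscle and 16.9 in control muscle, a bound of 1.44-fold higher. Hoxa6, read by the probe over its Pbx-binding motif, had 31.4 in N2ICD muscle and 26.2 in control muscle, a bound of only 1.06-fold. All 7 genes lay near the background, and after normexp background correction, which shrinks dim values, their differences ran from -0.34 to 0.28. Each was smaller in size than the gene's bound, so the bounds are no minimum across ways of processing.

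Adjacent genes of a cluster did not always differ the same way. The probes of Hoxb6 and Hoxb5 lie 4.51 kb apart on chromosome 11, and their differences were 0.85 for Hoxb6 and -0.78 for Hoxb5. Hoxc6 and Hoxc5, 5.48 kb apart on chromosome 15, had -0.06 and 1.11, but the value of Hoxc6 lay within its spot noise of 0.08. Other adjacent genes differed the same way, such as Hoxa10 at 0.19 and Hoxa11 at 0.34. The values for Hoxb5 and Hoxc5 come from probes that were not well above background on 1 array.

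In the authors' deposited table, 22 Hox probes of 21 genes were listed, the same genes as found here on at least 1 array. That table comes from the same 2 arrays and its values are nearly those given here, so it is no separate measurement. That table gave Hoxb6 as 1.82-fold up, Hoxc11 as 1.66-fold up, Hoxc4 as 1.52-fold up and Hoxc9 as 1.32-fold up. Its widest Hox differences were in genes marked there as detected on 1 array alone, with Hoxc5 2.19-fold up, Hoxa4 1.97-fold down and Hoxa13 1.92-fold up.

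Within the Hox clusters and 10 kb to each side, the array held 39 probes for other transcripts, of which 13 were well above background on both arrays. Hoxa11os, the antisense transcript of Hoxa11, had a signal of 639 in N2ICD muscle and 427 in control muscle, a difference of 0.41 beside the 0.34 of Hoxa11. HOTAIR, a long non-coding RNA of the Hoxc cluster, was well above background with 1 of 5 probes, which had 44.0 in N2ICD muscle and 76.5 in control muscle, a difference of -0.97. HOTAIR lies between Hoxc11, at 0.71, and Hoxc12, which neither array detected. An unnamed probe between Hoxb13 and Hoxb9 (chr11:96110121-96110180) had 20506 in N2ICD muscle and 16044 in control muscle, a difference of 0.18.

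Genes of the homeodomain class that includes the Pbx and Meis cofactors of Hox proteins were detected in both muscles. Of 11 such genes, 9 were measured on both arrays, with a median of 0.04. None passed 2-fold. The Meis-like factor Pknox2 had -0.74 and Meis1 0.48. Tgif2 and Tgif1, which are of this class but are no Pbx or Meis factors, had 0.76 and 0.68. Of 21 limb-type and limb-patterning factors, 16 were measured, with a median of -0.05 and 0 past 2-fold. The hindlimb factors Pitx1 and Tbx4 were detected in both muscles. Their forelimb counterpart Tbx5 was detected in neither, with signals of 6.59 in N2ICD muscle and 6.35 in control muscle. Isl1, another hindlimb factor of the list, was also detected in neither, with 6.91 in N2ICD muscle and 6.08 in control muscle. Pitx1 had 62.9 in N2ICD muscle and 90.0 in control muscle, a difference of -0.69. Prrx1, a factor of limb mesenchyme, had 0.82, Tbx2 -0.64 and Msx2 -0.33.

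Among genes that act on Hox expression, 14 of 17 Polycomb subunits were measured, with a median of 0.11 and 10 above 0, where 50.5% of all measured genes lay above 0. Suz12 had 0.64, Bmi1 0.53, Ezh2, which writes the H3K27 mark, 0.51, and Cbx7, which reads it, -0.42. Cbx2 and Cbx8, 2 of the 17, were called well above background in control muscle alone, against 1.79% of all named genes. Cbx2 had signals of 25.6 in N2ICD muscle and 27.6 in control muscle, and Cbx8 had 28.1 in N2ICD muscle and 41.9 in control muscle. The dimmest signals called well above background were 27.1 in N2ICD muscle and 25.4 in control muscle, so these calls were made near the background. Of 9 Trithorax and H3K27 demethylase genes, 8 were measured and 7 lay below 0, with a median of -0.16, and all 8 would lie above 0 on the spike-in scale. Rbbp5 had -0.42, Men1 -0.37, Kmt2b -0.22 and the demethylase Kdm6b, the gene above 0, 0.20. In both lists 0 genes passed 2-fold. Of 16 retinoic acid and caudal genes, 10 were measured, and 1 was at least 2-fold higher. This was Cyp26b1, which degrades retinoic acid, with 2473 in N2ICD muscle and 664 in control muscle, or 3.31-fold. Rxrg had -0.77, Aldh1a2, which makes retinoic acid, -0.43, and Aldh1a3 0.42. Gdf11, a secreted signal that sets the trunk-to-tail transition of Hox expression, had a signal of 827 in N2ICD muscle and 8.98 in control muscle with its 1 probe, and was well above background in N2ICD muscle alone. The caudal factors Cdx1, Cdx2 and Cdx4 were below detection in both muscles. Of 13 cluster neighbours, 8 had probes under a gene name and 6 of these were measured. HOTAIR, which the array holds as a lincRNA, is not counted among them. The 6 included Snx10 at -0.82, Mtx2 at 0.21, Evx2 at -0.17 and Smug1 at 0.15.

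Markers of cell types of limb muscle are given beside these values. All 11 fibroblast and connective tissue markers were measured, at -0.41 to 0.26 with a median of -0.11. Of 9 satellite cell markers 6 were measured, at -0.31 to 1.49 with a median of 0.43. Of these 6, 5 lay above 0, with Itga7, an integrin that muscle fibres also make, at 1.49, Sdc4 at 0.86, Cdh15 at 0.73 and Pax7 at 0.14, and Vcam1 lay at -0.31. The markers Myf5, Calcr and Cxcr4 were below detection in both muscles. Of 5 tendon markers 4 were measured, with a median of 0.02. Medians were -0.22 for muscle fibre, -0.34 for endothelial, 0.01 for smooth muscle and pericyte, -0.43 for macrophage and leukocyte and 0.15 for Schwann cell markers, over 8, 6, 6, 4 and 4 measured genes. The part of these cell types in the Hox values was not tested.

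**Figure D5:**
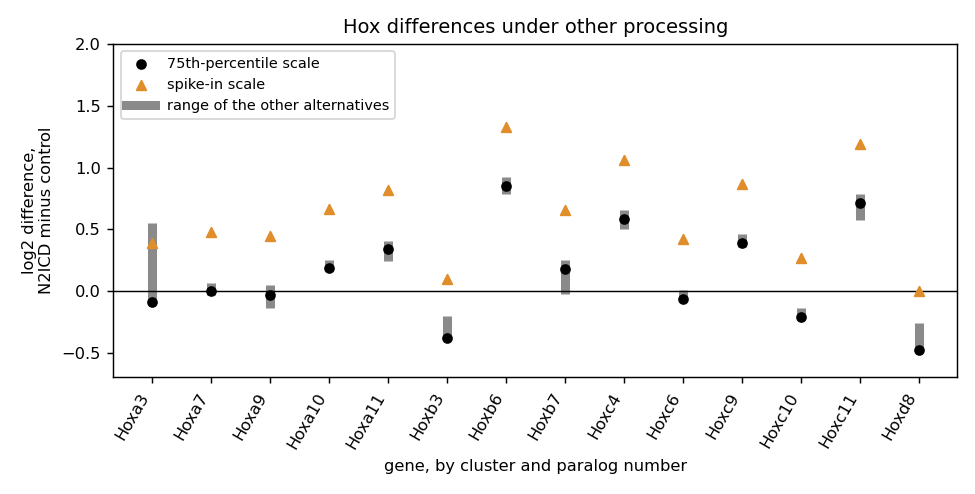
For each of the 14 Hox genes, the dot is the log2 difference, N2ICD minus control, on the 75th-percentile scale, the triangle the value on the spike-in scale and the grey bar the range over the other alternatives. Hoxb6, Hoxc11, Hoxc4, Hoxc9, Hoxa11 and Hoxa10 stay above 0 throughout, and every triangle lies above 0.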

How the data were processed

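Total RNA of 2 samples was labelled with Cy3, per the labels' protocols. The authors' scanner files hold spot intensity values from Agilent Feature Extraction 10.10.1.1 with probe positions on mm9. Per the file headers, background subtraction and spatial detrending were applied to these intensities array by array, with no step between arrays. The authors' deposited table gives an unsigned fold (ratio) and a normalized log2 value per array, whose derivation the sources used here do not give. Here, the 75th percentile over 59305 non-control spots was subtracted from each log2 processed signal, per array. Control spots and 215 outlier spots (1 of them Hoxb1) were left out, and spots of a probe were averaged. A gene's value is the mean over its probes detected (well above background) on both arrays. A named gene has a name other than its probe or accession and is no lincRNA region. Spot noise comes from 238 probes with at least 5 spots, in 4 groups by level. Levels of different probes were not compared. A few items are not reported here.

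All 39 Hox genes were counted as members, and every one well above background on at least 1 array was named with its signals. Of each other list except the cell markers, up to 4 measured genes with the largest absolute difference were named, and Tbx4, Tbx5, Isl1, Gdf11, Cbx2, Cbx8, the Cdx genes, Ckm, Acta1, Pax7, Itga7, Sdc4, Cdh15, Vcam1, Myf5, Calcr and Cxcr4 were added after their values were seen. Members, lists and alternatives were chosen with earlier results of these data known. No test was possible with 1 array per group. The number of arrays limits the precision. The scaling and averaging steps were tested on simulated data with the same noise at every signal level. Only genes detected on both arrays were changed there, so the detection calls and bounds were not tested. Normexp used limma 3.58.1 in R 4.3.3 with an offset of 50, and other steps Python 3.11.15 with pandas 2.3.3, numpy 2.4.6 and matplotlib 3.10.9.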

Additional observations from a re-analysis of the deposited data

Results flagged for a closer look

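Outside the Hox genes themselves, the probe of 9530018H14Rik, a RIKEN transcript at the tail end of the Hoxa cluster (chr6:52206240-52206299 on mm9), was well above background in the N2ICD muscle and not in the control muscle. Its signal was 48.2 in N2ICD muscle and 25.8 in control muscle, a bound of 0.73 log2 units higher. Hoxa13, whose probes lie at the same end of the cluster, had 47.5 in N2ICD muscle and 22.2 in control muscle with 1 of them. The other Hoxa13 probe was below detection in both muscles and had the lower signal in N2ICD muscle. The reverse call was made for a lincRNA probe of the Hoxb cluster, which was well above background in control muscle alone.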

How the results depend on the processing

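Up to 12 alternatives per gene were run. Hoxa10, Hoxa11, Hoxb6, Hoxc4, Hoxc9 and Hoxc11 kept their direction in all 12. Each is read by 1 probe, so changes of probe filter, flag, brightest probe or names could not alter its value. The spike-in scale could only raise it. Median scaling, which also shifts all genes alike, raised it too. The authors' table, made from the same 2 arrays, gave a slightly higher value for each. Scaling over spots well above background lowered all genes alike and only slightly, Hoxa10 from 0.19 to 0.17. Only quantile normalization, loess scaling and normexp could have changed the direction. Hoxb3, Hoxc10 and Hoxd8 had the opposite sign on the spike-in scale alone, at 0.10, 0.27 and 0.00. That scale rests on 7 E1A probes, whose log2 signal ratio had an SD of 0.08. Hoxa3, Hoxa7, Hoxa9, Hoxb7 and Hoxc6, all within 1 SD of the spot noise, changed sign under 1 to 4 alternatives, and 0.55 for Hoxa3 came from adding its dim probe. The number of Hox genes measured on both arrays was 39 when dim probes were kept and 27 with the looser flag for a positive and significant signal, which found 29 in N2ICD muscle and 30 in control muscle. The number at least 2-fold higher was 3 on the spike-in scale (Hoxb6, Hoxc4 and Hoxc11), 3 with no filter and 3 with the looser flag (Hoxb2, Hoxb8 and Hoxc5 in both), 1 with probes above background on at least 1 array (Hoxc5) and 2 at a 1.5-fold threshold. The number at least 2-fold lower was 1 with no filter (Hoxd10). Each of these follows from more probes entering, a lower threshold or a shifted scale. The median Hox difference was 0.56 on the spike-in scale, and 0.00 to 0.16 under the other scalings and normexp. Over all genes, 2-fold counts were 831 higher and 24 lower on the spike-in scale, 77 and 41 after normexp, 334 and 307 with probes above background on at least 1 array, 461 and 486 with the looser flag and 720 and 812 with no filter, against 182 and 115. The share of higher genes was 97.2%, 65.3%, 52.1%, 48.7% and 47.0% in that order, against 61.3%. Names updated through accessions changed no Hox probe. No paired analysis was possible because each group had 1 array. Dim signal limits 25 of the 39 genes.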
